A study of Mus musculus with 5 samples.

Results

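The EGF family ligands and the ERBB receptors form a main growth factor system of epithelial cells, and their RNA was measured in EpH4 cells, a line of mouse mammary gland epithelium. The genes were chosen by name, with earlier results of these data known. The 10 genes were 7 ligand genes (Areg, Ereg, Epgn, Btc, Hbegf, Tgfa and Nrg1) and 3 receptor genes (Egfr, Erbb2 and Erbb3). Each of the 10 was among the 12934 genes listed in the counts. The cells carried Cas9 and either a control sgRNA (sgControl, 3 libraries) or an sgRNA against Mef2d (sgMef2d, 2 libraries), and grew in serum-containing DMEM with penicillin and streptomycin. Both groups were infected with lentivirus first for Cas9, selected with blasticidin, and then for the sgRNA, selected with puromycin. The methods call the selected cells stable clones. They list a pair of sgRNAs against Mef2d, and the labels do not say which of them a library carries. MEF2D is a MADS-box transcription factor, and the comparison asks which RNAs differ in cells where it has been targeted.

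Each ligand is made as a membrane-anchored precursor and is released by proteases called sheddases. Its EGF-like domain binds the outer part of a receptor, the receptors pair, and their tails are phosphorylated. Amphiregulin (Areg), TGF-alpha (Tgfa) and epigen (Epgn) bind EGFR. Epiregulin (Ereg), betacellulin (Btc) and HB-EGF (Hbegf) bind EGFR and ERBB4. Neuregulin 1 (Nrg1) binds ERBB3 and ERBB4. ERBB2 has no known soluble ligand and acts as a partner of the others, and ERBB3 has a weak kinase and passes its signal through PI3K. In the mammary gland, amphiregulin acts downstream of estrogen in the growth of the ducts.

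The stretch that makes these proteins a family is the EGF-like domain, and its coding sequence is shown here for the ligand genes with the codons of its cysteines in capitals. Sequences were read 5′ to 3′ on the coding strand from the GENCODE M21 transcripts of GRCm38, in each gene from the coding transcript with the longest protein that holds the domain. The sequence of Hbegf is not shown.
Areg: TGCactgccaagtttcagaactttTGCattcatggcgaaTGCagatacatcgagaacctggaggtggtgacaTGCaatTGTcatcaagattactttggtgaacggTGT
Ereg: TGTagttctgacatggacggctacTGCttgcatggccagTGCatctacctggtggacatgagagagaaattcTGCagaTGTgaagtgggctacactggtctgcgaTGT
Epgn: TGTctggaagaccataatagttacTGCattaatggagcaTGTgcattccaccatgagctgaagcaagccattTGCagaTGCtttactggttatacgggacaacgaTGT
Btc: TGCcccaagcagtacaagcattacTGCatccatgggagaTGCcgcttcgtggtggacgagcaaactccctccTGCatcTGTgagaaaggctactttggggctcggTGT
Tgfa: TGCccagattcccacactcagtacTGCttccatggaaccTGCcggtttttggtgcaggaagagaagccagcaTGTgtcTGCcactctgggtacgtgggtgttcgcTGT
Nrg1: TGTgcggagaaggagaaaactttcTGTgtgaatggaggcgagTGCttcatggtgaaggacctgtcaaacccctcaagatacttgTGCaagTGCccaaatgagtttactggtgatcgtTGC

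Each domain holds 6 cysteines. In Areg, Ereg, Epgn, Btc, Tgfa and Hbegf the codons between them number 7, 4, 10, 1 and 8, in a domain of 36 codons. Nrg1 stands apart, with 7, 5, 13, 1 and 8 codons in a domain of 40. The stretch of Ereg lies at chr5:91088496-91089111 on the plus strand, split over exons 3 and 4 of 5, and that of Nrg1 at chr8:31837698-31849398 on the minus strand, split over exons 2 and 3 of 9 in the transcript shown. Among the printed domains of equal length, the identity of the bases ran from 45.4% (Ereg and Tgfa) to 62.0% (Btc and Tgfa). Nrg1 had 13 coding transcripts with the domain in 2 versions, which the counts per gene do not separate.

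Library totals ran from 13601145 to 20498563 counts over the genes listed. Counts were scaled to CPM (a gene's counts per mega-count of its library) with edgeR's TMM factors, and 12483 genes that passed its expression filter were tested with its quasi-likelihood test with Benjamini-Hochberg adjustment. Called means an adjusted p below 0.05. Mef2d itself, the targeted gene, stood at 64.3, 76.9 and 71.5 CPM in the sgControl libraries, in replicate order, and at 64.2 and 65.8 CPM in the sgMef2d libraries (log2 fold change, or log2FC, -0.12, adjusted p = 0.400 in edgeR's test), so its RNA level does not check the labels. Without sgControl replicate 1 it was called (log2FC -0.19, adjusted p = 0.00550). Of 12 epithelial markers, 11 were among the genes listed. Their levels summed to 4572 to 4724 CPM in sgControl and 4345 to 4506 CPM in sgMef2d, where Cldn4 was called higher and Krt18 lower. Myoepithelial markers (3 of 6 listed) summed to 455 to 459.6 CPM and to 899 to 955 CPM. Most of the sum was Krt14, which was called higher, as was Krt5 (0 to 0.146 CPM in sgControl, 15.3 and 14.2 CPM in sgMef2d), while Acta2 was called lower (16.9, 19.9 and 19.1 CPM against 9.59 and 11.6 CPM). Fibroblast markers (6 of 7) summed to 643 to 767 CPM and 608 to 649 CPM, with Col3a1 (2.73-fold) and Dcn (2.34-fold) called higher from low levels and Col1a2 (a fold of 0.687) called lower. Leukocyte markers (3 of 6) summed to 35.9 to 43.2 CPM and 31.2 to 32.4 CPM, with Cd14 called lower, and the adipocyte marker Fabp4 (1 of 4) fell from 2.42 to 3.80 CPM to 1.18 to 1.48 CPM, while 0 of 4 endothelial markers were among the genes listed. The part of these marker lists in the results was not tested. sgControl replicate 1 stood apart in its counts, with a chi-square per degree of freedom of 10.3 and 13.3 against the other sgControl libraries, where those had 1.98 between them.

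All of the 10 genes passed the expression filter. Ereg and Erbb3 were higher and Nrg1 was lower in the sgMef2d cells, and the other 7 did not pass the test. These 3 calls of 10 compare with 7.95% of all genes tested that were called in either direction, 3.67% higher and 4.28% lower. Since the genes were chosen with earlier results of these data known, this comparison and those that follow were not blind. The groups did not overlap in 6 of the 10 genes, 5 with both sgMef2d libraries above and 1 with both below, against 41.1% of all genes tested. An unadjusted p below 0.05 was reached by 5 of the 10, against 23.2% of all genes tested. The median log2FC of the 10 was 0.11, against 0.0031 over all genes tested. In bulk RNA, fewer cells that express a gene and less of its RNA per cell cannot be told apart. The labels do not say whether the libraries come from separate cultures, so the p-values measure the spread between these libraries, which may be technical.

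**Figure D1:**
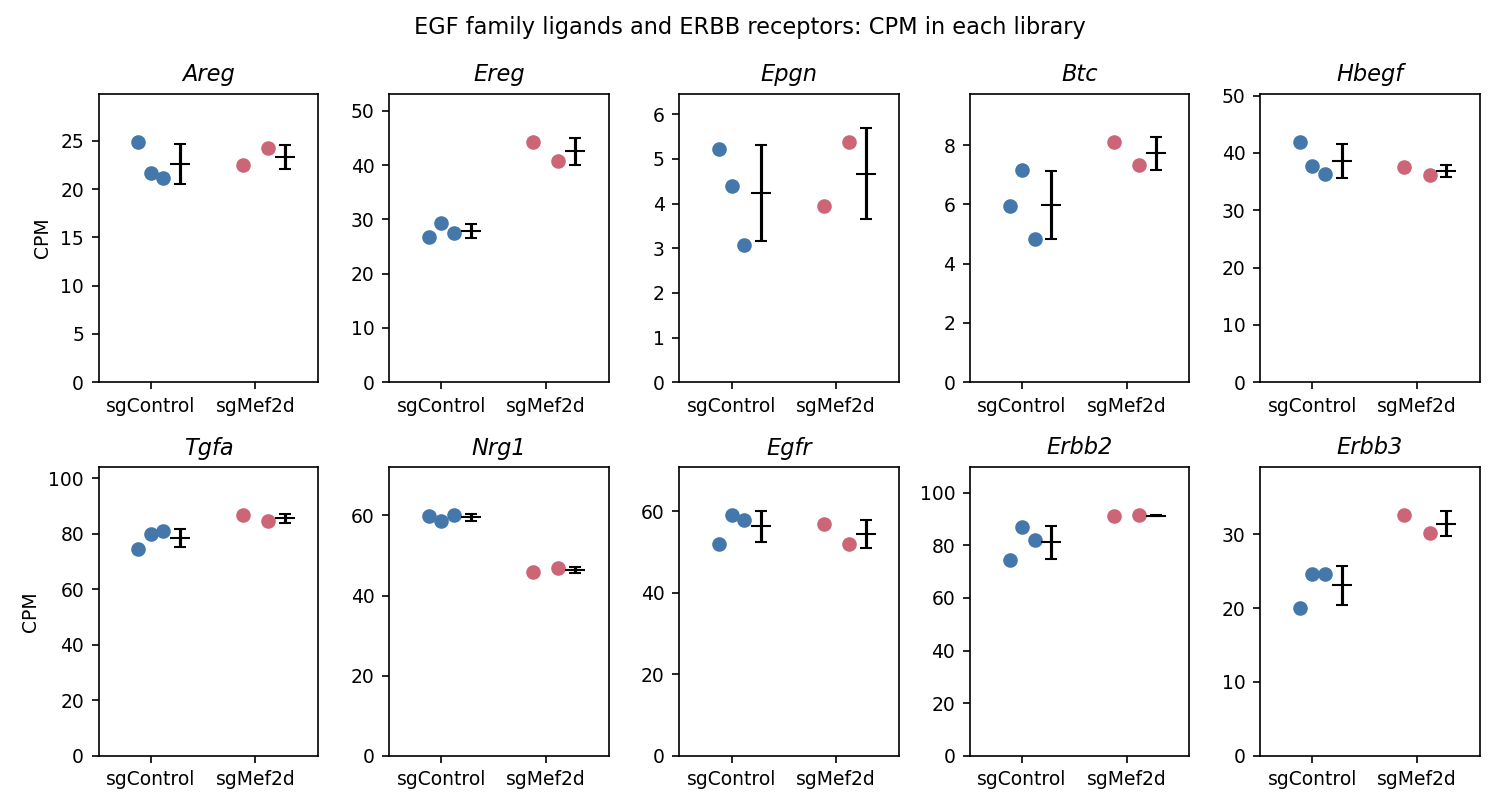
CPM of each ligand and receptor gene (vertical axes, linear from 0) in the 3 sgControl (blue) and 2 sgMef2d (red) libraries, with the mean and SD of each group in black. Both sgMef2d points lie above the 3 sgControl points for Ereg, Btc, Tgfa, Erbb2 and Erbb3 and below them for Nrg1.

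Among the ligands that bind EGFR, Ereg rose. Epiregulin is a growth factor that keratinocytes and other epithelial cells make and respond to. Ereg (ENSMUSG00000029377.5, chromosome 5 of GRCm38, 91074622 to 91093646, plus strand) had 26.8, 29.4 and 27.4 CPM in the sgControl libraries, against 44.3 and 40.8 CPM in the sgMef2d libraries. The sgControl libraries lay close together and both sgMef2d libraries lay well above them. This gave 27.8 ± 1.35 CPM (SD, n = 3) in sgControl against 42.6 ± 2.48 CPM (SD, n = 2) in sgMef2d and a log2FC of 0.62 ± 0.080 (SE), with an adjusted p of 0.000874 by edgeR's quasi-likelihood test, or a 1.53-fold rise with a 95% interval of 1.36 to 1.73. The call held when any one of the 5 libraries was left out. An antisense gene shares 141 of the 4128 exon bases of Ereg, and the strand setting of the counting is not given in the sources used here.

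Areg is the neighbour of Ereg on the chromosome. It had 24.9, 21.7 and 21.2 CPM in the sgControl libraries and 22.5 and 24.2 CPM in the sgMef2d libraries. The groups overlapped, since the highest value of the 5 was that of sgControl replicate 1. The log2FC was 0.04 with a 95% interval of -0.18 to 0.26 (adjusted p = 0.862 in the same test), so the interval reaches from a fold of 0.883 to 1.19. The direction turned without sgControl replicate 3 and without sgMef2d replicate 2, and without sgControl replicate 1 the log2FC was 0.12 (adjusted p = 0.374).

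Btc and Tgfa lay on the side of Ereg without passing the test. Btc had 5.95, 7.16 and 4.84 CPM in sgControl and 8.12 and 7.34 CPM in sgMef2d, with a log2FC of 0.37 (95% interval 0.00053 to 0.74, adjusted p = 0.215). Tgfa had 74.6, 79.9 and 80.8 CPM in sgControl and 86.7 and 84.4 CPM in sgMef2d, with a log2FC of 0.13 (95% interval -0.014 to 0.27, adjusted p = 0.265). In both genes the sgMef2d values lay above each sgControl value, and the gap between the lowest sgMef2d and the highest sgControl value was smaller than the range of the sgControl values.

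Epgn and Hbegf gave overlapping groups. Epgn, with 42 counts in its lowest library, had 5.22, 4.40 and 3.08 CPM in sgControl and 3.94 and 5.39 CPM in sgMef2d. At 42 counts, counting error alone is 15.4% of the value, and the log2FC of 0.09 had the widest interval of the 10 genes, from -0.42 to 0.60 (adjusted p = 0.858). HB-EGF is a ligand that also binds heparin. Hbegf had 42.0, 37.7 and 36.3 CPM in sgControl and 37.5 and 36.1 CPM in sgMef2d, a log2FC of -0.07 (95% interval -0.26 to 0.11, adjusted p = 0.647).

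Nrg1, the ligand of ERBB3 and ERBB4, fell. Nrg1 (ENSMUSG00000062991.7, chromosome 8 of GRCm38, 31814551 to 32884029, minus strand) had 59.9, 58.5 and 60.1 CPM in the sgControl libraries, against 45.9 and 46.9 CPM in the sgMef2d libraries. The libraries of each group lay within a few percent of each other, with a wide gap between the groups. This gave 59.5 ± 0.875 CPM (SD, n = 3) in sgControl against 46.4 ± 0.730 CPM (SD, n = 2) in sgMef2d and a log2FC of -0.36 ± 0.066 (SE), with an adjusted p of 0.00657 by edgeR's quasi-likelihood test, or a fold of 0.780 with a 95% interval of 0.706 to 0.862. With sgMef2d replicate 1 or 2 left out, the log2FC was -0.35 and -0.38, in a fit that assumes the remaining sgMef2d library to vary like the sgControl libraries. The call was lost in both fits, as were most calls over all genes. The lincRNA gene Gm26578, on the opposite strand, shares 482 of the 10351 exon bases of Nrg1 and was listed at 1.10 to 2.49 CPM.

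Of the receptors, Erbb3 rose. Erbb3 (ENSMUSG00000018166.8, chromosome 10 of GRCm38, 128567523 to 128589652, minus strand) had 20.0, 24.6 and 24.6 CPM in the sgControl libraries, against 32.6 and 30.2 CPM in the sgMef2d libraries. sgControl replicate 1 was the lowest, and both sgMef2d libraries lay above the sgControl libraries. This gave 23.1 ± 2.64 CPM (SD, n = 3) in sgControl against 31.4 ± 1.67 CPM (SD, n = 2) in sgMef2d and a log2FC of 0.46 ± 0.10 (SE), with an adjusted p of 0.0208 by edgeR's quasi-likelihood test, or a 1.37-fold rise with a 95% interval of 1.17 to 1.61. Without sgControl replicate 1, the log2FC was 0.35 (adjusted p = 0.000564), and 29.4% of all genes tested were called in that fit. Without sgMef2d replicate 1 or 2, the log2FC was 0.39 and 0.50, under the same assumption on the lone library. The call was lost in both fits, as were most calls over all genes.

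Erbb2 and Egfr did not pass the test. Erbb2 had 74.3, 86.9 and 82.2 CPM in sgControl and 91.2 and 91.5 CPM in sgMef2d, so that the groups did not overlap, with a log2FC of 0.17 (95% interval 0.013 to 0.33, adjusted p = 0.179). Egfr, the receptor of each ligand here except Nrg1, had 51.9, 59.0 and 57.8 CPM in sgControl and 56.7 and 51.9 CPM in sgMef2d. Its groups overlapped, with a log2FC of -0.05 (95% interval -0.22 to 0.13, adjusted p = 0.777), and its direction turned without sgMef2d replicate 2. In Egfr, Erbb2 and Erbb3, sgControl replicate 1 was the lowest of the sgControl libraries.

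**Figure D2:**
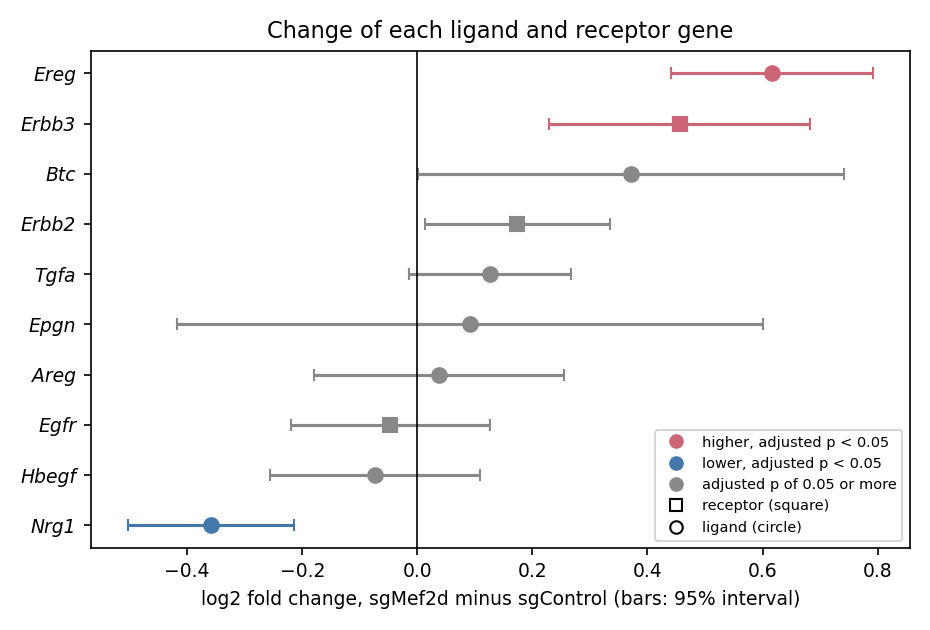
Log2 fold change of each gene, sgMef2d minus sgControl (horizontal axis), with its 95% interval, circles for ligands and squares for receptors. Ereg at 0.62 and Erbb3 at 0.46 are called higher, Nrg1 at -0.36 is called lower, and the grey genes did not pass the test.

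Levels of different genes were compared as CPM per kilobase of annotated exon. In the sgControl cells, Areg had the highest level of the 7 ligands, 18.6 ± 1.67 CPM per kilobase (SD, n = 3), followed by Tgfa at 12.1 ± 0.515, Hbegf at 7.99 ± 0.615, Ereg at 6.75 ± 0.327, Nrg1 at 5.75 ± 0.0846, Epgn at 2.34 ± 0.597 and Btc at 1.32 ± 0.257 CPM per kilobase. Neighbours in this order had no overlapping values. In the sgMef2d cells the order was the same except that Ereg, at 10.3 ± 0.601 CPM per kilobase (SD, n = 2), stood before Hbegf, at 7.62 ± 0.213. Erbb2 had the highest level of the receptors, 15.6 ± 1.22 CPM per kilobase in sgControl and 17.5 ± 0.0401 in sgMef2d. Egfr stood at 4.97 ± 0.335 and 4.79 ± 0.305, and Erbb3 at 3.84 ± 0.439 and 5.22 ± 0.278 CPM per kilobase. In sgMef2d the values of Egfr (4.58 and 5.01) and Erbb3 (5.42 and 5.03) lay side by side.

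The order depends on the length used. With the longest annotated transcript in place of the union of exons, Nrg1 had 11.0 ± 0.162 CPM per kilobase in sgControl and stood before Ereg, and Hbegf had 13.4 ± 1.03. Areg and Tgfa then lay within their spread, at 18.6 ± 1.67 and 17.3 ± 0.738 in sgControl and at 19.2 ± 1.03 and 18.9 ± 0.350 in sgMef2d. On that scale Ereg, at 10.3 CPM per kilobase in sgMef2d, stood after Hbegf, at 12.7, and before Nrg1, at 8.57. Egfr and Erbb3 in sgMef2d were at 5.32 ± 0.338 and 5.22 ± 0.278, which is within their spread.

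As a share of the summed CPM per kilobase of the 7 ligand genes, Ereg made up 11.3%, 13.0% and 12.6% in the sgControl libraries and 18.3% and 16.6% in the sgMef2d libraries. Nrg1 made up 10.1%, 10.3% and 11.0% in sgControl and 7.55% and 7.63% in sgMef2d. The share of Areg was 35.9%, 32.6% and 33.1% in sgControl and 31.5% and 33.6% in sgMef2d, in overlapping groups. The sum itself was 54.8 ± 2.28 CPM per kilobase (SD, n = 3) and 59.1 ± 0.481 (SD, n = 2). Of the summed CPM per kilobase of the 3 receptor genes, Erbb3 made up 15.0% to 16.4% in sgControl and 19.4% and 18.5% in sgMef2d, and Egfr 20.1% to 20.7% and 17.9% and 16.9%, while Erbb2 stayed between 62.7% and 64.7% in the 5 libraries. These shares restate the same counts, on a scale where a rise of one gene lowers the others.

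**Figure D3:**
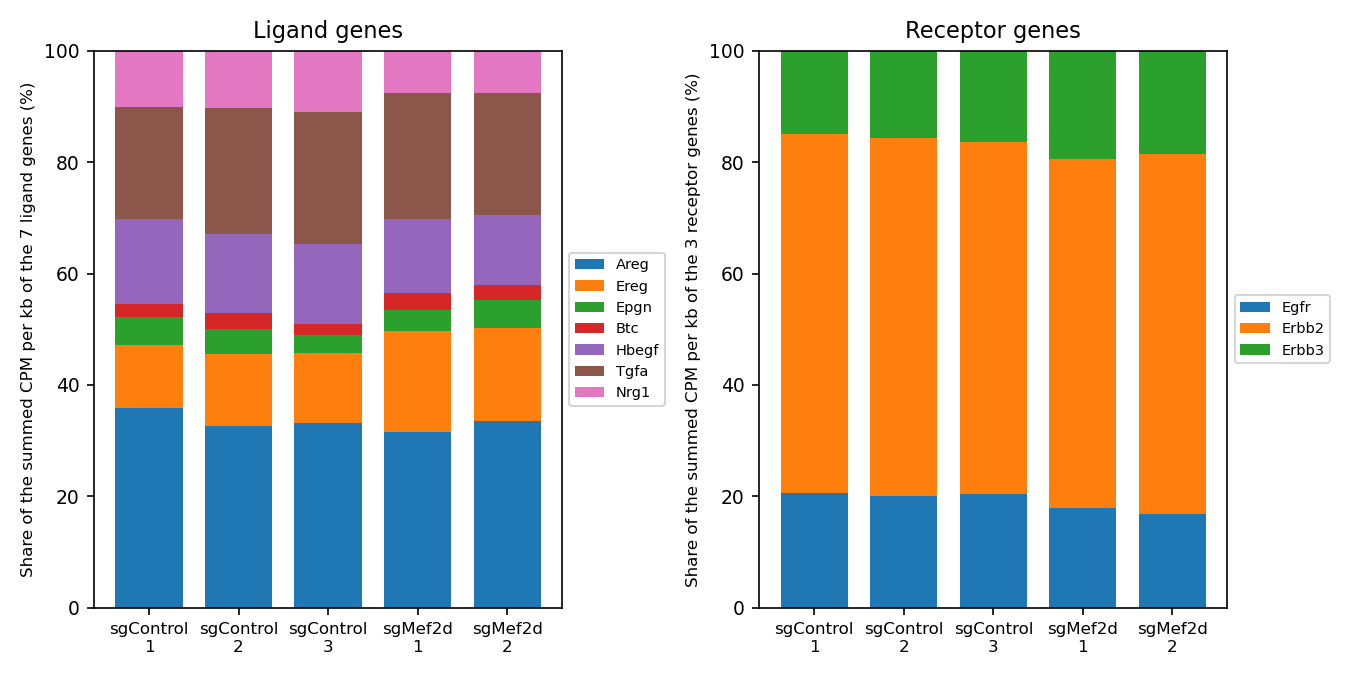
Share of each gene (vertical axis, percent) in the summed CPM per kilobase of the 7 ligand genes (left) and of the 3 receptor genes (right), one bar per library. The Ereg segment is 11.3% to 13.0% in sgControl and 16.6% to 18.3% in sgMef2d, and the Nrg1 segment shrinks from 10.1% or more to 7.63% or less.

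A feature that the choice of genes did not use is position. Epgn, Ereg, Areg and Btc are 4 neighbouring genes on chromosome 5 of GRCm38, from 91027464 to 91402994, with no other annotated protein-coding gene between them. Epgn, Ereg and Areg lie on the plus strand, with gaps of 39.4 and 46.0 kb, and Btc on the minus strand, 209 kb beyond Areg. Of this cluster, Ereg was called, while both genes that flank it were not (0.09 for Epgn and 0.04 for Areg on the log2 scale).

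Within 1 Mb on either side of the cluster, 25 other genes were listed, and 5 of them were called, each higher. The background is 3.67% of all genes tested called higher. They were Ppbp (log2FC 2.82), Cxcl5 (1.07), Cxcl3 (1.05) and Cxcl2 (0.82), which encode CXC chemokines and lie together on the Epgn side of the cluster, and Afp (1.61), which encodes alpha-fetoprotein. Cxcl1, in the same chemokine cluster, had a log2FC of 0.58 (adjusted p = 0.0744 in edgeR's test). It was called with the replicate number as a block (0.40, adjusted p = 0.000199) and without sgControl replicate 1 (0.83, adjusted p = 2.97e-19). In the block fit, sgControl replicate 3 had no sgMef2d library of its number and did not enter the group difference. Between the chemokine genes and Epgn lies Mthfd2l, a gene of mitochondrial folate metabolism, with a log2FC of -0.09 (adjusted p = 0.470). Parm1, the nearest listed gene beyond Btc, had 2.88, 4.25 and 3.59 CPM in sgControl and 2.06 and 1.75 CPM in sgMef2d (log2FC -0.87, adjusted p = 0.0605), and was called once sgControl replicate 1 was left out, at an adjusted p of 0.00170, and with the block, at 0.0201. The median log2FC of the 25 genes was -0.04. Genes called lower numbered 0 in edgeR's test, in DESeq2 and in limma-voom, and 3 of the 25 at an unadjusted p below 0.05 (against 1502 of the 12483 genes tested), which were Parm1, Cdkl2 (log2FC -0.24, adjusted p = 0.0553) and Gm43039 (-1.44, adjusted p = 0.0717). Without sgControl replicate 1, 7 neighbours were called higher and 4 lower, in a fit that called 29.4% of all genes tested. Cxcl2 lost its call without either sgMef2d library.

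**Figure D4:**
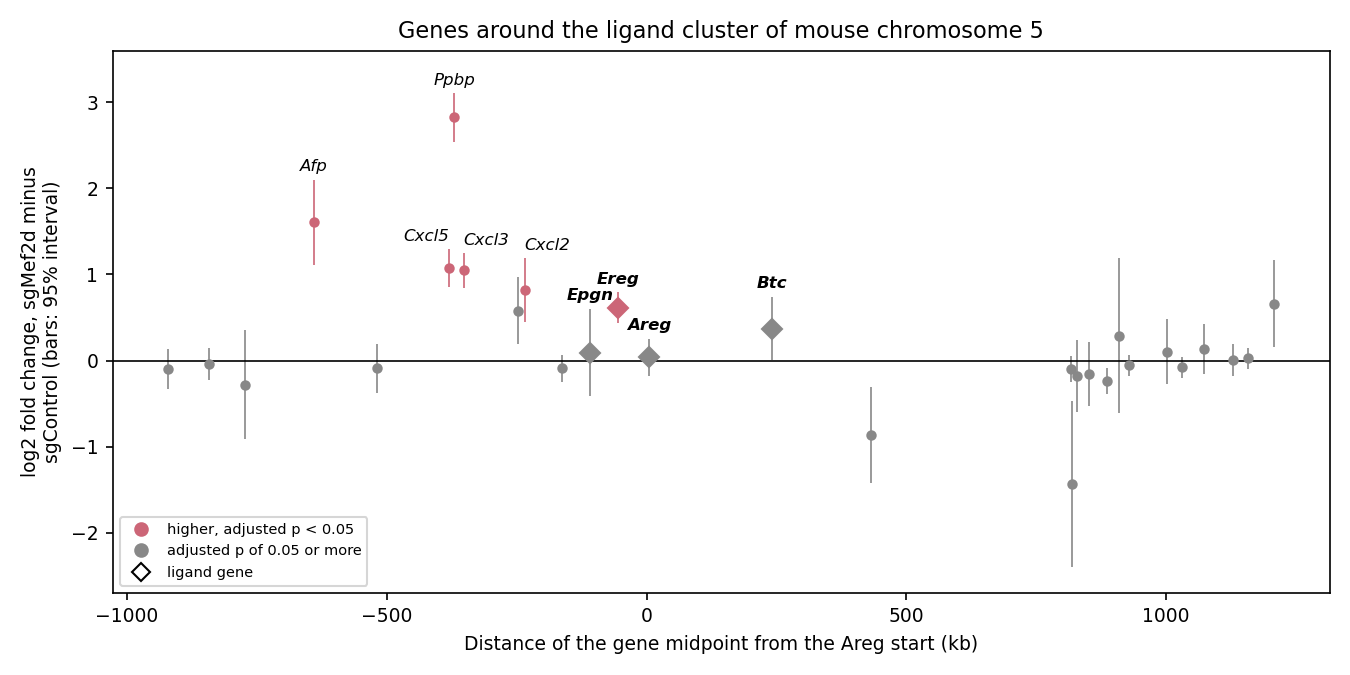
Log2 fold change with its 95% interval (vertical axis) of the listed genes around the ligand cluster of chromosome 5, against the distance of each gene's midpoint from the Areg start in kb (horizontal axis), with ligand genes as diamonds. Ereg is called beside Epgn and Areg, which are not, and the chemokine genes on the left reach 2.82.

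The genes that release, restrain and transmit the signal were taken from lists of 81 genes grouped by role, of which 76 were tested and 8 were called, 5 higher and 3 lower (10.5%, against 7.95% of all genes tested). Their median log2FC was -0.06. The groups did not overlap in 36 of the 76, against the background of 41.1%. This share of calls is near the background.

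Of the other ligands and receptors of the family, Egf and Nrg2 were tested and had low levels. Egf had 0.513 to 1.91 CPM in sgControl and 1.24 and 1.68 CPM in sgMef2d, and Nrg2 1.32 to 1.76 CPM and 1.29 and 1.35 CPM. Neither was called. Nrg3, Nrg4 and Erbb4 were not among the genes listed in the counts, from which low-count genes had been filtered out upstream.

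Of 14 genes for sheddases and their partners, 1 was called (7.14%, against 7.95% of all genes tested). Adam19, a membrane protease known to cut neuregulin precursors, had 10.1, 9.43 and 11.0 CPM in sgControl and 31.9 and 32.9 CPM in sgMef2d. This was a 3.18-fold rise (log2FC 1.67, adjusted p = 2.57e-06 in edgeR's test), and the call held in each of the 14 alternatives run for it. The proteases that release most EGFR ligands did not pass the test, with log2FC values of 0.012 for Adam17 (95% interval -0.18 to 0.20) and -0.0022 for Adam10 (95% interval -0.14 to 0.14). Rhbdf2, which encodes an iRhom that carries ADAM17 to the surface, had a log2FC of 0.20 (adjusted p = 0.0967), and Adam12 one of -0.27 (adjusted p = 0.0557). Rhbdl2 (log2FC -0.56, adjusted p = 0.0943) and Bace1 (-0.20, adjusted p = 0.0943) were not called either. In 5 of the 14 genes both sgMef2d libraries lay below the sgControl libraries, and in 3 both lay above.

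Of 16 receptor inhibitors and ubiquitin ligases tested, 1 was called (6.25%, against 7.95% of all genes tested). A negative log2FC was found in 14 of the 16, with a median of -0.09, and in 6157 of the 12483 genes tested. Over all the pathway lists it was found in 50 of 76 genes, so the lean was not particular to this list. The counts were 19 of 27 adaptors and first effectors, 9 of 14 sheddases and partners, and 7 of 17 co-receptors, chaperones and trafficking genes. Lrig1, which encodes a membrane protein that restrains the ERBB receptors, had 143, 147 and 144 CPM in sgControl and 118 and 113 CPM in sgMef2d, and fell with a log2FC of -0.33 (adjusted p = 0.00522 in edgeR's test), a call lost without either sgMef2d library. Its paralogs Lrig2 and Lrig3 had log2FC values of -0.27 (adjusted p = 0.179) and -0.13 (adjusted p = 0.644). Errfi1, the feedback inhibitor that binds the EGFR kinase, had 241 to 244 CPM in sgControl and 259.5 and 239 CPM in sgMef2d, with overlapping groups, and Cbl, the ubiquitin ligase of EGFR, had a log2FC of -0.11 (adjusted p = 0.458).

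Of 17 genes for co-receptors, chaperones and trafficking, 2 rose and 1 fell (17.6%, against 7.95% of all genes tested). Cav1, which encodes caveolin-1, went from 122, 122 and 123 CPM in sgControl to 183 and 179.7 CPM in sgMef2d (log2FC 0.57, adjusted p = 0.000118 in edgeR's test). Sdc1, which encodes the heparan sulfate proteoglycan syndecan-1, had a log2FC of 0.38 (adjusted p = 0.00177), and Rab11a, which encodes a GTPase of recycling endosomes, of -0.31 (adjusted p = 0.0262). Cav1 kept its call with any one library left out, while Sdc1 lost it without sgMef2d replicate 2 and Rab11a without either sgMef2d library.

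Of 27 adaptors and first effectors tested, 2 rose and 1 fell (11.1%, against 7.95% of all genes tested). Pik3r1, which encodes the p85-alpha subunit of PI3K, had 79.4, 96.0 and 95.9 CPM in sgControl and 49.0 and 55.8 CPM in sgMef2d, and fell with a log2FC of -0.78 (adjusted p = 0.000630 in edgeR's test). The genes of the catalytic subunits did not pass the test, with log2FC values of -0.16 for Pik3ca (adjusted p = 0.217) and -0.04 for Pik3cb (adjusted p = 0.807). Stat3 rose with a log2FC of 0.28 (adjusted p = 0.0143), and the adaptor gene Grb2 with one of 0.22 (adjusted p = 0.0417). Grb2 was not called by DESeq2 (adjusted p = 0.0945), with the replicate number as a block (adjusted p = 0.0672) or without any single library other than sgControl replicate 1, and Stat3 lost its call without sgControl replicate 2 or either sgMef2d library. Without sgControl replicate 1, 8 genes of these lists were called higher and 21 lower, where 29.4% of all genes tested were called.

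**Figure D5:**
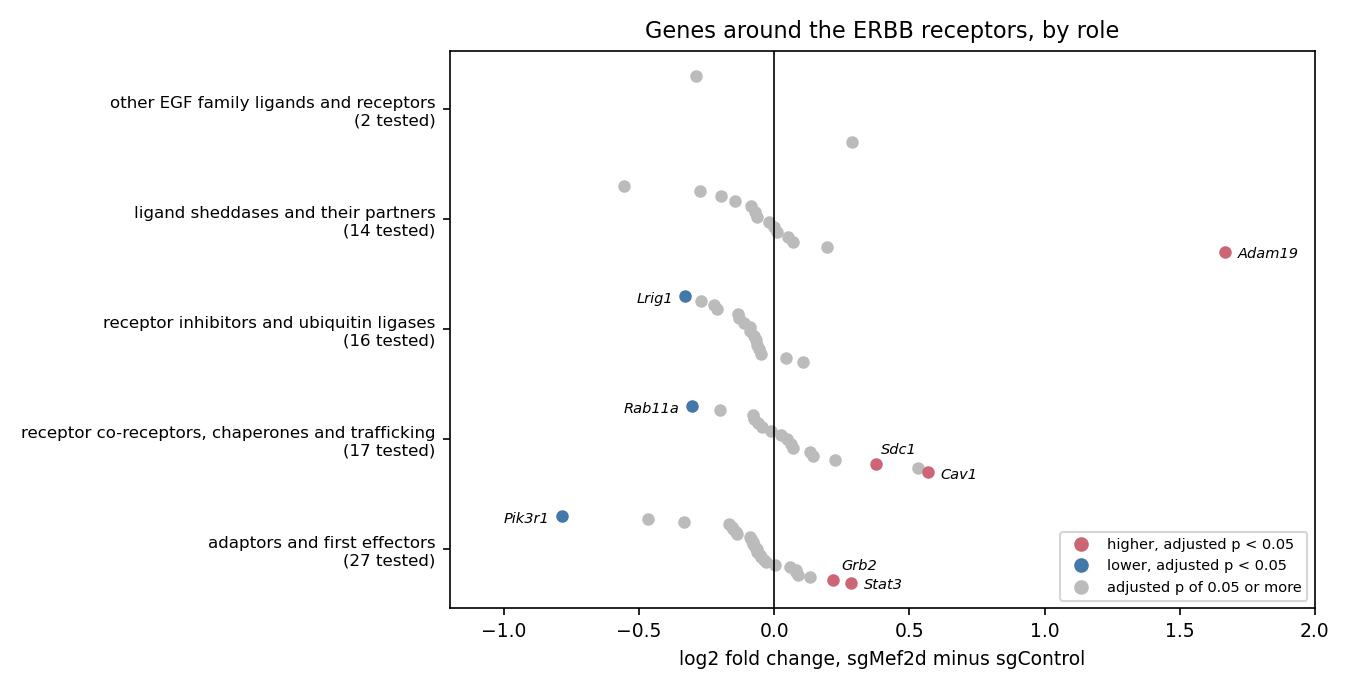
Log2 fold change (horizontal axis) of the tested genes of each pathway list (rows), with called genes in colour and named. The 8 called genes run from Pik3r1 at -0.78 to Adam19 at 1.67, and most other genes lie close to 0.

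Ereg had the smallest p of the 10 genes, and the genes with the profile most like it were sought among all genes tested. Likeness was measured as the root mean square difference of the centred log2 CPM over the 5 libraries, so that it rests largely on the difference between the groups. The nearest 3 were Slfn8 (difference 0.0423), Irf9 (0.0467) and Oas3 (0.0478). Their log2FC values were 0.55, 0.55 and 0.60, and each lost its call in at least one fit that left out an sgMef2d library. Oas3 was also not called by DESeq2 with the 5 libraries (adjusted p = 0.0736).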

How the data were processed

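Poly(A)-selected, strand-marked libraries of 3 sgControl and 2 sgMef2d samples were sequenced. The authors aligned the reads to GRCm38 with STAR2, ran FASTQC and RSeQC, and deposited a table of whole-number counts for each gene, without normalization. Their processing notes also name Subread. Low-count genes had been filtered out upstream, so each gene had at least 11 counts in a library, and totals cover the genes listed. The methods name a different GENCODE version, and the counting tool they name is a pathway tool. Identifiers matched GENCODE M21 once versions were dropped (12934 of 12934, and 12811 with the version), and exon lengths rest on M21.

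TMM factors were computed from these counts with edgeR 4.0.16 (R 4.3.3), as were the expression filter and the bias-adjusted quasi-likelihood test. Standard errors were the log2 fold change divided by the square root of F. DESeq2 1.42.0 and limma-voom (limma 3.58.1) were alternatives, with other normalizations, filters, thresholds, a replicate block and each library left out. On simulated counts for sgMef2d against sgControl over 12335 genes, 72 of 100 genes changed by 0.5 (log2) and 88 of 100 changed by 1 were called, with 13 calls among 12135 unchanged genes. Each count was drawn independently, so a library that stands apart, as sgControl replicate 1 did, was not simulated.

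The named genes were the 10 ligands and receptors, up to 6 called genes of each list by smallest p, the neighbours within 1 Mb, Mef2d and the 3 genes most like the member with the smallest p. Uncalled genes of the lists (such as Adam17, Lrig2, Errfi1 and Pik3ca) were named for their roles after their values were seen. Members and lists were chosen with earlier results of these data known.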

Additional observations from a re-analysis of the deposited data

How the results depend on the processing

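The log2 fold change of Ereg kept its direction and its call in each of the 14 alternatives, between 0.55 and 0.67 (adjusted p from 5.23e-10 to 0.0341). Nrg1 ran from -0.38 to -0.35 and Erbb3 from 0.35 to 0.51. Both lost the call without either sgMef2d library, where the lone library was assumed to vary like the sgControl group. Most calls over all genes were lost in those fits as well. Leaving out 1 library in turn gave 1 to 2 of the 10 genes called higher and 0 to 1 lower, 2 to 8 pathway genes higher and 1 to 21 lower, 0 to 4 neighbours lower, and over all genes 135 to 1804 higher and 97 to 1835 lower, most of them without sgControl replicate 1. At an adjusted p below 0.01, 1 of the 10 genes, 3 pathway genes and 203 of all genes were higher and 219 of all genes lower. At an unadjusted p below 0.05, 4 of the 10 genes were higher, 14 pathway genes and 3 neighbours lower, and 1399 of all genes higher and 1502 lower. With library totals in place of TMM factors, 1 neighbour was lower and Naaa turned to -0.0041. The groups share the replicate numbers 1 and 2 alone, and the deviations of same-numbered libraries correlated at 0.011 and -0.00090. With the replicate block, 6 pathway genes and 1 neighbour (Parm1) were lower, Cxcl1 and Gm26582 were called higher, 592 of all genes higher and 662 lower, and Areg (-0.0030), Epgn (-0.078) and Ankrd17 (0.017) changed sign. Leaving out 1 library also turned the sign of some log2 fold changes, and over those fits Areg ran from -0.018 to 0.12, Epgn from -0.14 to 0.31, Egfr from -0.12 to 0.011, Cox18 from -0.25 to 0.032, Ankrd17 from -0.13 to 0.012, Gm26582 from -0.22 to 0.70 and Naaa from -0.033 to 0.022. The cause of these changes was not tested. Epgn and Btc had the fewest counts, and for them a change of the size of that of Erbb3 lies within the interval.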
